A study of Mus musculus with 2 samples.

Results

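The 7 genes described here encode proteins that restrict viruses inside or at the surface of the cell: the interferon-induced transmembrane proteins Ifitm1, Ifitm2, Ifitm3 and Ifitm6, tetherin (Bst2), the dNTP hydrolase Samhd1 and the cytidine deaminase Apobec3. They are 7 of 34714 genes in an expression table of mouse bone marrow-derived macrophages. The genes were chosen from their names and known functions, with the levels in these same libraries already known, since Bst2 had been seen to lie opposite to other interferon-response genes; their levels are therefore a description and carry no test. Macrophages came from C57BL/6 bone marrow cells of no stated age, sex or genetic change, grown in M-CSF, the macrophage growth factor, at 20 ng/mL. For 24 h they received either FGK45, a monoclonal antibody that activates the receptor CD40, or IgG as the control. Each group held 1 library, so no difference between the groups has a replicate check, and "higher" and "lower" below refer to these 2 libraries. The labels do not say whether 1 animal or a pool gave the cells.

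As background, interferons made after infection bind receptors that activate JAK kinases and STAT factors, and the complexes formed with IRF9 turn on many target genes through a promoter motif called the ISRE. IFITM proteins sit in endosomal and surface membranes and hinder the fusion of viral with cellular membranes. Tetherin holds budding enveloped virus at the cell surface, SAMHD1 depletes the nucleotides needed for reverse transcription in non-dividing cells such as macrophages, and APOBEC3 enters virions and deaminates viral DNA. Macrophages keep part of this repertoire on without infection.

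The promoters of 4 of the 7 genes hold the core of the ISRE, GAAANNGAAA on either strand, and they are shown because these 4 genes did not lie on the same side of IgG. All 7 matched RefSeq (GRCm38.p6), with a window from 250 bases before to 50 after the annotated start. In the stretches below, 5′ to 3′ along the gene, capitals mark every core match. The Bst2 stretch is chr8:71537473-71537722 (minus strand) and holds 2 cores that overlap each other, at bases -130 to -121 and -124 to -115 from the start. The Ifitm3 stretch is chr7:141010715-141010844 (minus strand), from base -100 to base 30, and holds cores at bases 3 to 12 and 20 to 29. The Ifitm2 stretch is chr7:140955962-140956061 (minus strand) with a core at -46 to -37, and the Apobec3 stretch is chr15:79892218-79892317 (plus strand) with a core on the opposite strand at -140 to -131.
Bst2: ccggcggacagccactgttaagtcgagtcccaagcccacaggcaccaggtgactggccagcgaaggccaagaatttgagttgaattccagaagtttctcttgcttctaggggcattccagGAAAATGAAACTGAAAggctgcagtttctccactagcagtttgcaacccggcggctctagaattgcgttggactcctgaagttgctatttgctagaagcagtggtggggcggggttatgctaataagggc
Ifitm3: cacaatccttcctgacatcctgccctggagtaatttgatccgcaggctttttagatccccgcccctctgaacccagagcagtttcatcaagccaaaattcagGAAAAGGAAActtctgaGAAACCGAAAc
Ifitm2: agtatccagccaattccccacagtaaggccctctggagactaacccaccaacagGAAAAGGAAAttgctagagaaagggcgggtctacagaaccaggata
Apobec3: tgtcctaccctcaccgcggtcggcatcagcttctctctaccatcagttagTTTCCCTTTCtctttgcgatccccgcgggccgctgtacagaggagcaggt
The first 10 bases in capitals read the same in Ifitm3 and Ifitm2.

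**Figure D1:**
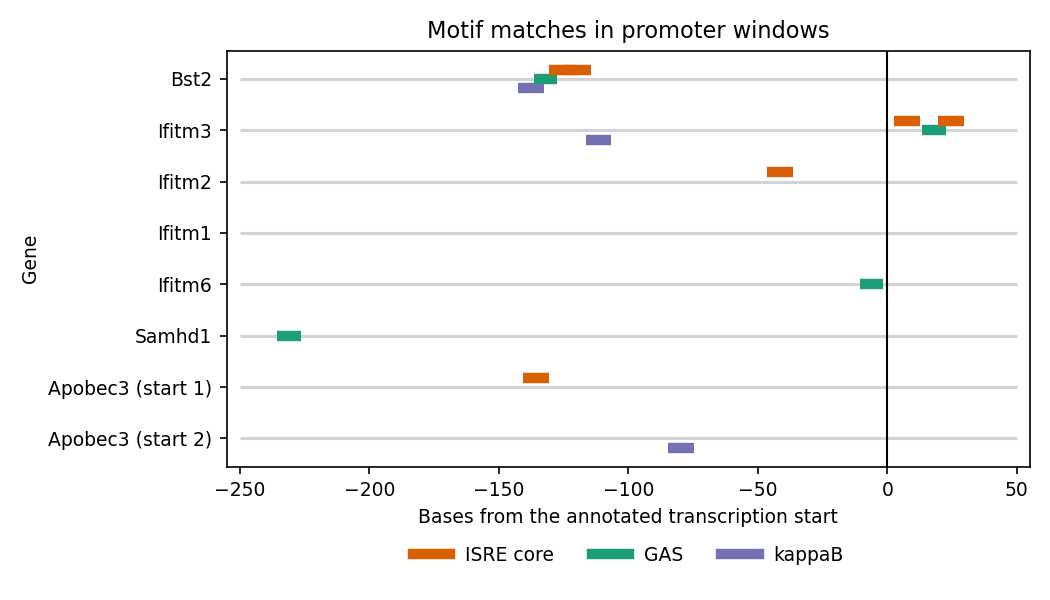
Matches to the ISRE core, GAS and kappaB motifs (coloured bars) by distance in bases from the annotated transcription start, 1 line per promoter window, with 2 windows for Apobec3. Bst2 is the gene with all 3 motifs within bases -142 to -115, and no match lies in the Ifitm1 window.

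Levels are in FPKM, fragments scaled to transcript length and library size, so that they can be compared between genes. With IgG the order was Ifitm3 at 1216 FPKM, Ifitm2 at 488, Bst2 at 193, Samhd1 at 44.0, Ifitm6 at 21.2, Apobec3 at 14.8 and Ifitm1 at 6.52. The first 4 places were the same with anti-CD40, at 984, 536, 309 and 52.9 FPKM. Apobec3 (14.6) and Ifitm6 (14.3) then exchanged places, and Ifitm1 stayed last at 5.64. Intervals on each level, 95% exact Poisson limits on approximate fragments that cover counting error only, did not meet between neighbours in that order except for this pair with anti-CD40, where Apobec3 ran from 13.3 to 16.1 FPKM and Ifitm6 from 12.4 to 16.4. Ifitm3 stood at rank 72 of all genes in the table with IgG and at rank 83 with anti-CD40. All 7 genes passed the filter of 1 FPKM in at least 1 library.

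**Figure D2:**
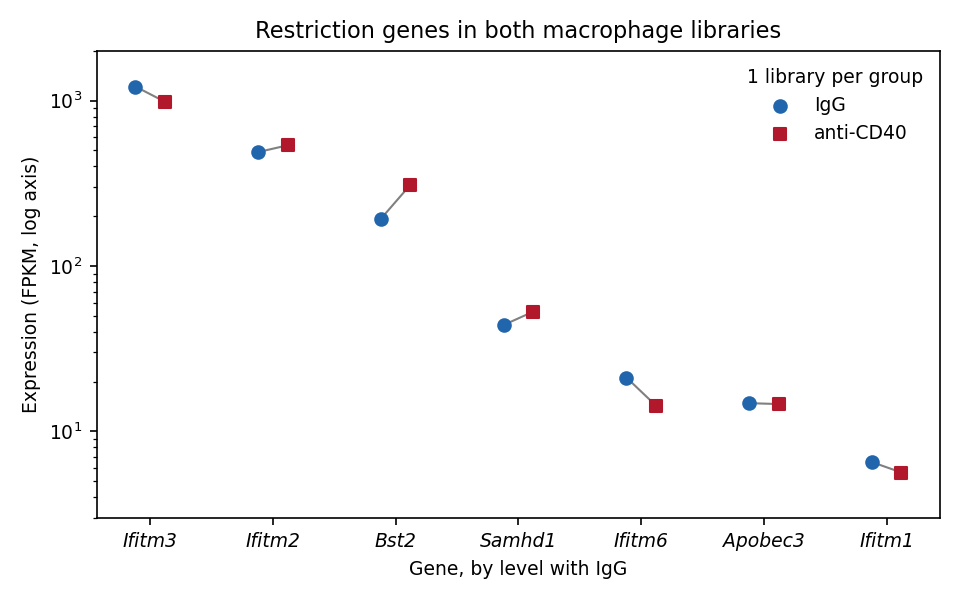
FPKM (log axis) of the 7 genes with IgG (circles) and anti-CD40 (squares), 1 library each, ordered by the level with IgG. Bst2 went from 193 to 309 FPKM, and Ifitm6 from 21.2 to 14.3.

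Of the 7 genes, Bst2 was higher with anti-CD40 by more than 1.5-fold, and 0 were lower by as much. Both counts depend on the scaling: after centring on the median of all genes Bst2, at a log2 ratio of 0.56, no longer reached 1.5-fold, and Ifitm6, at -0.65, was more than 1.5-fold lower. After upper-quartile scaling Ifitm6 also passed that mark, at -0.62, and Bst2 lay just inside it, at 0.59. Differences are log2 ratios of (FPKM + 1), anti-CD40 over IgG, counted over the 9591 genes that reached 1 FPKM in at least 1 library. Of these, 2.68% were at least 1.5-fold higher and 2.15% at least 1.5-fold lower, and 0.25% and 0.313% were at least 2-fold higher and lower. None of the 7 genes reached 2-fold. The shares of all counted genes also stand as background for the list counts below. The median log2 ratio of all counted genes was 0.12 rather than 0, so a gene with equal values lies below most others. Ratios above 0 were held by 67.8% of counted genes and by 3 of the 7 (Bst2, Samhd1 and Ifitm2), and ratios below 0 by 32.2% and by 4 of the 7 (Ifitm6, Ifitm3, Ifitm1 and Apobec3). Relative to the median, which by construction has 50% of genes above it, the same 3 genes lay above and the same 4 below. The median over the 7 genes was -0.02.

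**Figure D3:**
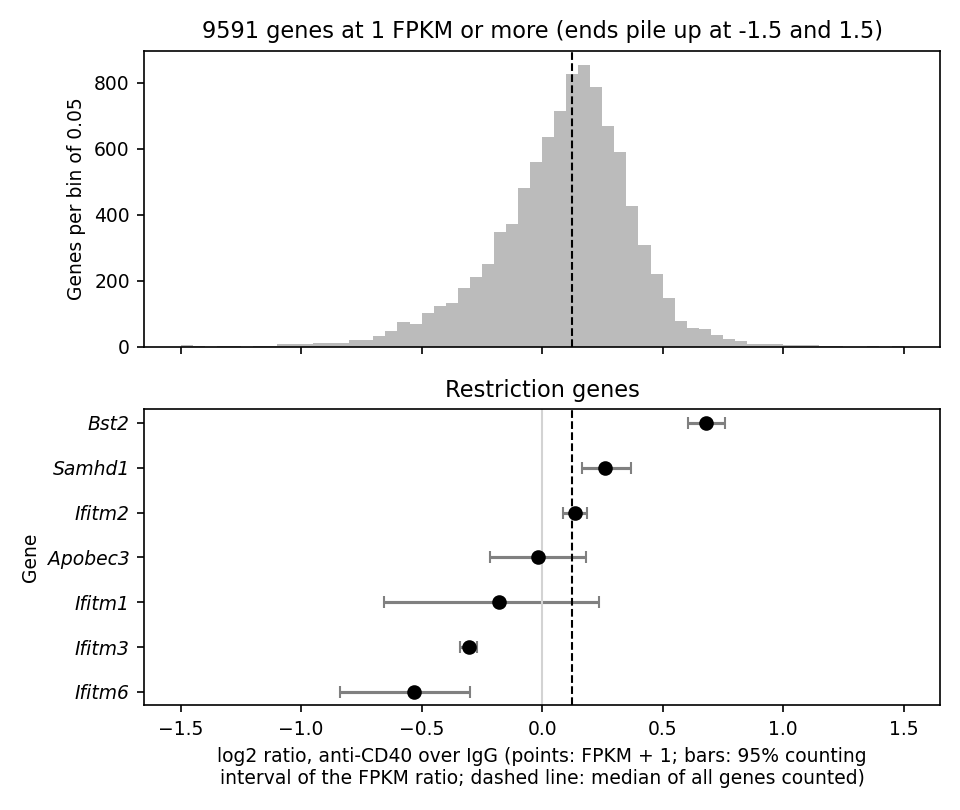
Upper panel, the number of genes per bin of log2 ratio for the 9591 counted genes; lower panel, the 7 genes, with points on the FPKM + 1 scale and bars for the 95% counting interval of the FPKM ratio. Bst2 lies right of the bulk of genes at 0.68, and Ifitm3 and Ifitm6 lie left of 0 with intervals that do not reach it.

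Bst2, whose protein tetherin anchors virions to the membrane through its ends, lies on chromosome 8 from 71534255 to 71537472. It had 309 FPKM with anti-CD40 against 193 with IgG. Its FPKM ratio was 1.60, with an interval from 1.52 to 1.69; such intervals are 95% exact conditional binomial limits on approximate fragments, here 3823 and 2157, and do not include the spread between cultures. The log2 ratio was 0.68, and 149 of the 9591 counted genes (1.55%) had a higher one. The value stands just inside the 1.5-fold mark at 1.60-fold on the FPKM + 1 scale, and the gene of the 7 nearest to the mark on the other side was Ifitm6, at 1.45-fold lower. Over the 8 alternatives the lowest value for Bst2 was 0.56, after centring on the median of all genes, and the highest was 0.78, after trends on transcript GC content and length were removed. Bst2 made up 9.72% of the summed FPKM of the 7 genes with IgG and 16.1% with anti-CD40. No 100-base window of its transcripts was found in those of another gene (0 of 822).

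The neighbours of Bst2 did not share its ratio. Mvb12a, which encodes a subunit of the ESCRT-I complex and lies 5.43 kb away, had 68.0 FPKM with anti-CD40 against 70.0 with IgG. Tmem221 on the same side had 5.51 and 6.50 FPKM. On the other side Gtpbp3 had 7.93 and 6.34 FPKM and Ano8 10.2 and 10.7. The counted genes nearest to Bst2 in level, by distance in the plane of the log2(FPKM + 1) values of these 2 libraries, were the mRNA decay factor Zfp36 (306 and 182 FPKM, distance 0.081), thioredoxin Txn1 (292 and 192, distance 0.082) and the ATP synthase subunit gene Atp5g2 (294 and 201, distance 0.095). With 2 libraries, such a likeness says only that levels were similar in each.

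Proteins that handle tetherin were considered next, from a list of 8 measured genes. Of the 7 at 1 FPKM or more, 4 exceeded the all-gene median and 0 were 1.5-fold apart on the FPKM + 1 scale. The list median was 0.24 against 0.12. Marchf8, a membrane ubiquitin ligase, had 5.04 FPKM with anti-CD40 against 3.35 with IgG. Tsg101, a core subunit of the ESCRT-I complex, had 19.2 and 13.9 FPKM, and Bcap31, a membrane protein of the endoplasmic reticulum, had 112 and 82.9. Ap1m1, a subunit of the clathrin adaptor AP-1, had 25.0 and 20.9 FPKM. These 4, named for the largest ratios of the list, had higher values with anti-CD40 and ratios below that of Bst2. The interval for Marchf8, from 1.03 to 2.21, includes the Bst2 ratio of 1.60. Of the 7 list genes at 1 FPKM or more, 5 had log2 ratios above 0, against 67.8% of all counted genes. Hgs (38.2 and 38.7 FPKM) and Ap2m1 (104 and 105) lay just below 0.

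The 4 IFITM genes differed among themselves in level by more than 2 orders of magnitude on the FPKM scale and in direction. They lie within a stretch of chromosome 7 from 140954837 (Ifitm2) to 141016892 (Ifitm6). Ifitm3, the family member best known for blocking influenza virus, had 984 FPKM with anti-CD40 against 1216 with IgG. It was 1.24-fold lower, with an interval from 1.21 to 1.26, and its log2 ratio of -0.31 was below that of 8733 of the 9591 genes. Ifitm2, which acts mainly against viruses that enter through late endosomes, had 536 and 488 FPKM. Its ratio was 1.10, with an interval from 1.06 to 1.14, and its log2 ratio of 0.14 was close to the median of all genes. The side of that median on which Ifitm2 lies depends on the scaling: with a pseudocount of 0.1 FPKM it had 0.14 against a median of 0.15, and after upper-quartile scaling 0.04 against 0.05.

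The balance between the abundant members was therefore different in each library. Ifitm3 stood at 2.49 times Ifitm2 with IgG and at 1.83 times with anti-CD40. Together they made up 98.4% of the summed FPKM of the 4 IFITM genes with IgG and 98.7% with anti-CD40. That sum was 1731 FPKM with IgG and 1540 with anti-CD40, 1.12-fold lower. A ratio of 2 genes in the same library does not depend on the scaling of that library.

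Ifitm6 had 14.3 FPKM with anti-CD40 against 21.2 with IgG. It was 1.48-fold lower on the FPKM scale, with an interval from 1.23 to 1.79, and its log2 ratio of -0.53 was the lowest of the 7. Of the counted genes, 289 lay lower. Ifitm1, which in other cells sits mostly at the plasma membrane, had 5.64 and 6.52 FPKM. The interval on its ratio, from 0.635 to 1.18, includes 1, so a difference was not detectable at about 85 and 89 fragments. Ifitm3 and Ifitm6, whose annotated bodies are 5.07 kb apart, were both lower with anti-CD40, while Ifitm2 and Ifitm1, 7.74 kb apart, lay on different sides of 0. The next counted genes outside the cluster were Pgghg, at 6.62 and 6.37 FPKM, and Ptdss2, at 6.80 and 5.66.

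IFITM genes are close copies, and part of the sequence cannot tell them apart. The coding sequences of Ifitm2 and Ifitm3 were identical at 80.9% of 408 aligned bases, those of Ifitm1 and Ifitm3 at 82.1% of 318, and those of Ifitm3 and Ifitm6 at 65.7% of 367. The longest run shared by Ifitm2 and Ifitm3 is 69 bases, at coding positions 130 to 198 of Ifitm2 (chr7:140955718-140955786) and 133 to 201 of Ifitm3 (chr7:141010445-141010513), both on the minus strand. It is shown because a shorter read from it fits both genes equally.
Ifitm2 and Ifitm3: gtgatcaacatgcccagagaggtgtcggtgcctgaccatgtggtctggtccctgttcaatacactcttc
Of windows of 100 bases in the annotated transcripts (GENCODE M21), 0 of 579 of Ifitm3, 0 of 1006 of Ifitm1 and 0 of 804 of Ifitm6 occurred in another gene. For Ifitm2 the share was 34.9% of 556 windows, most of them in Gm45717, a transcript model that also shares windows with Ifitm5. How the reads of such windows were assigned is not given in the sources used here, which bears most on the level of Ifitm2, the gene of the 4 with the largest share of such windows. The other IFITM genes were low: Ifitm5, a bone gene, had 0.564 FPKM with anti-CD40 against 0.778 with IgG, Ifitm10 had 0.108 and 0.125, and Ifitm7 was listed at 0 in both.

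Of genes that act on IFITM proteins, 5 of 6 reached 1 FPKM, with a median log2 ratio of 0.10, 2 above the median of all genes and 0 past 1.5-fold. The palmitoyltransferase gene Zdhhc20 had 8.64 FPKM with anti-CD40 against 10.3 with IgG, and Zdhhc1, of the same enzyme family, had 6.90 and 5.64. The membrane protease Zmpste24, a partner of IFITM3, had 7.68 and 6.29 FPKM. Vcp, an ATPase that extracts ubiquitinated proteins, had 103 and 95.5 FPKM, and the membrane contact protein Vapa had 34.4 and 33.5. The ubiquitin ligase Nedd4 was near the floor at 0.184 and 0.105 FPKM.

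Samhd1, on chromosome 2 from 157097534 to 157135096, had 52.9 FPKM with anti-CD40 against 44.0 with IgG. Its ratio was 1.20, with an interval from 1.12 to 1.29, and its log2 ratio of 0.26 lay at 0.14 above the median of all genes, with 2503 genes higher. Genes of nucleotide supply and of the cyclin-dependent kinases that phosphorylate SAMHD1 formed a list of 15, of which 13 reached 1 FPKM. Their median was 0.17, 7 exceeded the all-gene median, and 0 were 1.5-fold apart on the FPKM + 1 scale. Deoxycytidine kinase Dck had 3.92 and 2.54 FPKM, Cdk2 had 7.57 and 5.87, Cdk1 had 6.16 and 5.07 (an interval on its ratio that starts at 0.867), and the mitochondrial deoxyguanosine kinase Dguok had 21.3 and 25.1.

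Apobec3, on chromosome 15 from 79892058 to 79918218, was nearly equal in the libraries, at 14.6 FPKM with anti-CD40 against 14.8 with IgG. The interval on its ratio ran from 0.862 to 1.14, and its log2 ratio of -0.02 turned to 0.03 when both libraries were rescaled to the same sum, so that it has no direction of its own. Its annotation overlaps Cbx7 (0.661 and 0.201 FPKM) and D730005E14Rik (0.218 and 0.125 FPKM), both far below it, and 4.66% of 100-base windows of Apobec3 transcripts occur in another gene, most often D730005E14Rik. Of its family, Apobec1, which edits apolipoprotein B mRNA, was more abundant at 54.2 and 54.4 FPKM. Apobec2 had 0.040 FPKM in the anti-CD40 library and is listed at 0 for IgG, Apobec4 was listed at 0 in both, and the cofactor gene A1cf had 0.014 and 0.051. The uracil glycosylase Ung, which removes the product of deamination, had 2.30 and 1.78 FPKM.

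Restriction genes outside the 7 were mostly on the lower side of the median. Of 33 measured, 27 reached 1 FPKM, 8 exceeded the all-gene median and 19 below, and the list median was -0.06 against 0.12. None was 1.5-fold apart in either direction on the FPKM + 1 scale, which understates the ratios of low genes. Among all counted genes, 2.68% were that much higher and 2.15% that much lower. The RNA helicase Mov10 had 5.98 FPKM with anti-CD40 against 8.60 with IgG, Slfn5 of the Schlafen family had 10.5 and 14.4, and the capsid-binding Trim5 had 1.69 and 2.56. The guanylate-binding protein Gbp2 went the other way with 4.99 and 3.30 FPKM. Its log2 ratio of 0.48 was the highest of the 27, below that of Bst2. The Bst2 ratio was exceeded by 1.55% of all counted genes.

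The type I interferon response list, which leaves out the 7 genes and shares 13 symbols with the list of restriction genes, held 60 measured genes, 55 of them at 1 FPKM or more. Of these, 11 lay above the all-gene median and 44 below. On the FPKM + 1 scale 4 were at least 1.5-fold lower, among them 2 at least 2-fold lower, and 0 were 1.5-fold higher. The corresponding shares of all counted genes were 2.15%, 0.313% and 2.68%. The list median was -0.13. None of the 55 had a ratio as high as that of Bst2. Only 1.55% of all counted genes had a higher one, so this count alone does not set the list apart. Ifi27l2a, a strongly interferon-inducible gene, had 101 and 192 FPKM, close to Bst2 in level with IgG and below it with anti-CD40. Since Bst2 was chosen for this difference, it is a description.

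**Figure D4:**
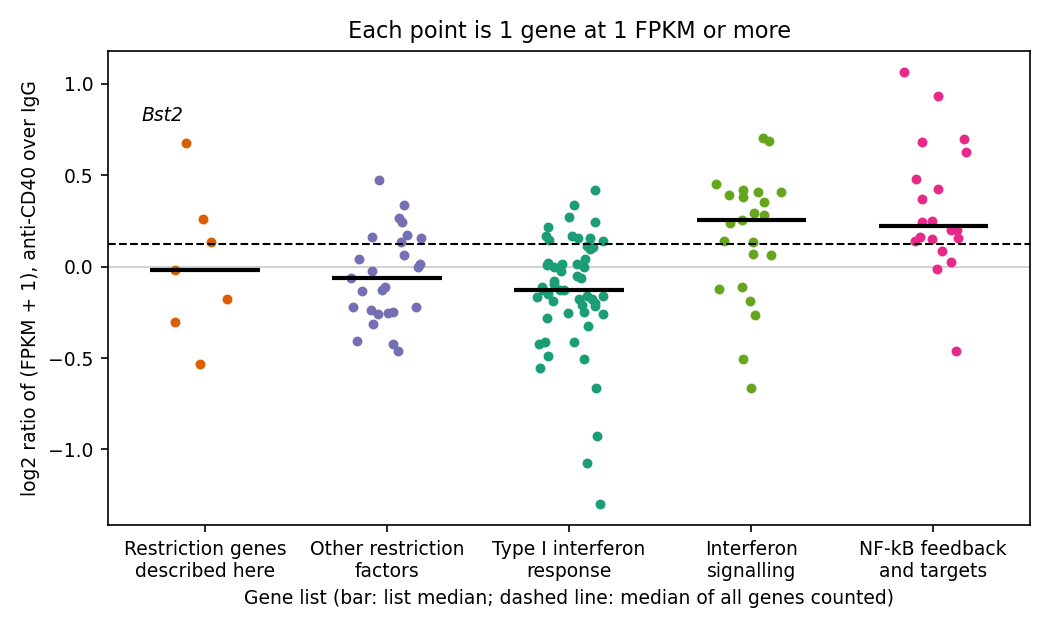
Log2 ratio of each gene at 1 FPKM or more in 5 lists, with a bar at each list's median and a dashed line at the median of all counted genes (0.12). Bst2 at 0.68 lies above all points of the other restriction factors and of the type I interferon response list, and within the range of the interferon signalling and NF-kB lists. Of all counted genes, 1.55% lie above Bst2.

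Interferon genes themselves were barely detected. Of 20 measured interferon genes, 18 were listed at 0 in both libraries, Ifnb1 had 0.051 FPKM with anti-CD40 against 0.064 with IgG, and Ifnz had 0.007 FPKM in the anti-CD40 library and is listed at 0 for IgG. Receptors and signalling genes were present: 23 of 24 reached 1 FPKM, 15 exceeded the all-gene median, and their median was 0.26. Irf1, a factor induced by interferon gamma and by NF-kB, had 21.2 FPKM with anti-CD40 against 12.6 with IgG, and the feedback inhibitor Socs3 had 5.13 and 2.81. Irf1 and Socs3 were the 2 genes of that list 1.5-fold higher and also the 2 with a ratio as high as that of Bst2. Of all counted genes, 2.68% were 1.5-fold higher and 1.55% had a ratio above that of Bst2. Irf7, which amplifies interferon production, had 15.7 and 25.5 FPKM. On the FPKM + 1 scale it was the 1 gene of the list 1.5-fold lower, against 2.15% of all counted genes. Usp18, which dampens receptor signalling, had 2.49 and 3.95 FPKM. It was 1.59-fold lower on the FPKM scale, with an interval from 1.01 to 2.63.

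The ISRE core was set against these ratios over all promoters. It occurred in 3.44% of 32851 promoter windows of the same length and in 3.93% of the 7864 counted genes with a window. The 309 counted genes that hold it had a median log2 ratio of 0.12, as had those without it. In the type I interferon response list, 18 of 42 counted genes with a window held the core; their median was -0.15, against -0.03 for the list genes without it, and 4 of the 18 exceeded the all-gene median. Of the 7 genes described here 4 held it, and they ran from Ifitm3 at -0.31 through Apobec3 at -0.02 and Ifitm2 at 0.14 to Bst2 at 0.68. Oas1g and Oas1a, oligoadenylate synthetase genes and the lowest of the interferon list, each held 2 cores, as Bst2 and Ifitm3 did, and had log2 ratios of -1.30 and -1.07. Isg15 of the same list, among those that exceeded the all-gene median, held 3 cores and had a log2 ratio of 0.34.

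A match to the GAS motif, TTCNNNGAA, which STAT dimers bind, was found in 4 of the 7 genes. It occurred in 8.30% of all windows and in 8.05% of counted genes with a window. In Bst2 the GAS match lies at bases -136 to -128 and overlaps the first ISRE core. In Ifitm3 it lies at 14 to 22 and overlaps the second. Ifitm6 has it at -10 to -2 and Samhd1 at -235 to -227. The kappaB motif of NF-kB was found in 3 of the 7 genes, in 8.46% of all windows and in 12.2% of counted genes with a window. In Bst2 it lies at -142 to -133, where it overlaps the GAS match. In Ifitm3 it lies at -116 to -107 on the opposite strand, and in Apobec3 at -84 to -75 from the second annotated start. Counted genes with a kappaB match had a median log2 ratio of 0.13, against 0.12 for those without. A match describes letters only and shows no binding, and the window without a match, that of Ifitm1, says nothing about factors acting elsewhere.

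Markers of the labelled cell type were present, with 12 of 12 macrophage markers at 1 FPKM or more. Of these, 7 lay above 0 in log2 ratio and 5 below, against 67.8% and 32.2% of all counted genes. The 12 markers summed to 17634 FPKM with anti-CD40 against 16101 with IgG. Cd14 (333 and 244 FPKM) and Adgre1, which encodes F4/80 (94.4 and 78.3), were higher with anti-CD40, and C1qb (1955 and 2623) and Aif1 (152 and 196) were lower. Because Bst2 is also a surface marker of plasmacytoid dendritic cells, a list of 13 dendritic cell markers was read beside it. It summed to 228 FPKM with anti-CD40 against 173 with IgG, nearly all of it Cd300c2 at 224 and 168, and 11 of 13 were below 1 FPKM. Flt3 and Klk1 were listed at 0 in both libraries, Siglech had 0.056 FPKM with anti-CD40 against 0.162 with IgG, Ccr9 had 0.017 and is listed at 0 for IgG, Ly6d had 0.976 and is listed at 0 for IgG, and Tcf4 had 1.93 and 4.32. Neutrophil markers, read beside Ifitm6 and Ifitm1, summed to 18.6 and 21.7 FPKM, mostly Csf3r at 16.0 and 20.1, while S100a8, the other marker that reached 1 FPKM, had 1.82 and 1.11; 6 of the 12 were listed at 0 in both, S100a9 and Ly6g among them. All 7 monocyte markers were below 1 FPKM, summing to 0.947 and 0.910, as were all 8 B cell and all 10 stromal markers. B cell markers summed to 1.35 and 0.978 FPKM, stromal markers to 1.59 and 0.738, T and NK cell markers to 4.55 and 3.72 (mostly Cd4, at 3.94 and 3.04), and progenitor and erythroid markers to 2.53 and 4.63. The part of these cells in the ratios was not tested. In such bulk libraries, fewer cells of a type and less RNA per cell cannot be told apart.

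**Figure D5:**
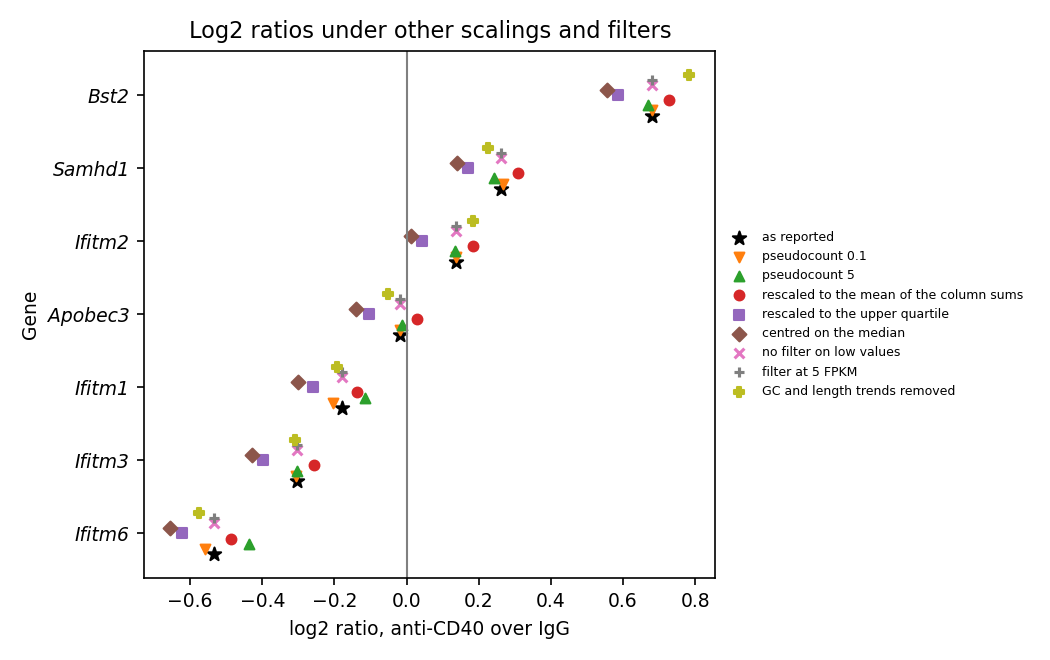
Log2 ratio of each of the 7 genes as reported (stars) and under 8 other scalings, pseudocounts, filters and corrections (other symbols). Bst2 stays between 0.56 and 0.78, and Apobec3 is the gene whose values fall on both sides of 0.

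Some other genes had levels like those of the 6 genes beside Bst2, by the same distance over these 2 libraries. Nearest to Ifitm3 was the pentose phosphate enzyme gene Taldo1 (991 and 1269 FPKM), nearest to Ifitm2 the lysosomal cholesterol carrier Npc2 (546 and 507), and nearest to Ifitm6 was Parp10 (14.5 and 21.6). Samhd1 lay nearest to Kxd1 (51.9 and 44.0 FPKM), Apobec3 to Anapc4, a subunit of the anaphase-promoting complex (14.9 and 14.9), and Ifitm1 to Gpcpd1 (5.60 and 6.47).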

How the data were processed

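The table the authors deposited was read as FPKM. Its header names no unit: FPKM was inferred because the submitters' processing notes name StringTie and the columns have unequal sums (529104 for anti-CD40, 547362 for IgG). Those notes also name HISAT2 2.1.0 and mm10. For annotation and strand, the setting is not given in the sources used. Per the labels' protocols, 1.3 ug RNA per library went into a TruSeq preparation.

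Columns were matched by name, with 0 unused, and all 34714 symbols matched RefSeq. FPKM times length moved in steps: within 0.05 steps, 77.5% of 80 and 82.6% of 46 low single-exon genes were whole. Steps of 0.5 aligned bases imply 6.16 (anti-CD40) and 5.58 (IgG) gigabases, and pairs of 300 bases give the approximate fragments, using median GENCODE transcript lengths. All intervals rest on these assumptions.

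With 1 library per group no test was made; the measure was the log2 ratio of (FPKM + 1), which understates low genes. Genes of each list were named by largest ratio (up to 4, or all of lists with 6 or fewer), with neighbours and nearest patterns; others were chosen after seeing values. Members and lists were chosen with earlier results of these data known. Alternatives were pseudocounts, scalings, filters and a correction for GC content and length (98.6% of counted genes; lowess span 0.3). The count of genes 2-fold higher was tested on simulated fragments with larger planted increases and counting error only. That does not cover the 1.5-fold counts, decreases or the spread between cultures. Python 3.11.15, pandas 2.3.3, scipy 1.17.1, statsmodels 0.14.6 and Biopython 1.88 were used. Some genes of the lists are not reported here.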

Additional observations from a re-analysis of the deposited data

How the results depend on the processing

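Across the 8 alternatives the sign of the log2 ratio of 6 of the 7 genes was as reported; Apobec3 turned from -0.02 to 0.029 when the libraries were scaled to equal sums. For Bst2 the value was 0.59 after upper-quartile scaling, 0.56 after centring and 0.78 with GC and length trends removed. After centring it fell short of 1.5-fold higher, the only one of the 8 alternatives in which it did. Ifitm6 passed 1.5-fold lower after centring (-0.65) and upper-quartile scaling (-0.62), and in none of the other 6. After centring on the median, the list medians were -0.25 (type I interferon response) and -0.19 (other restriction factors). Counts of all genes 1.5-fold higher and lower were 508 and 329 with a pseudocount of 0.1, 81 and 102 with 5, 166 and 333 after upper-quartile scaling, and 118 and 406 after centring, against 257 and 206. Counts of genes 2-fold higher and lower were 88 and 75 with a pseudocount of 0.1, 4 and 10 with 5, 13 and 54 after centring, and 14 and 19 with a filter at 5 FPKM (fewer genes tested), against 24 and 30. Of the 7 genes, 2 lay above the median with a pseudocount of 0.1 or upper-quartile scaling, against 3. With 1 library per group, no library could be left out. No paired analysis was possible because each group holds 1 library. The intervals of Ifitm1 and Apobec3 include no difference. Depth limits Ifitm1, at about 85 and 89 fragments, while Apobec3 had about 437 and 400 and nearly equal values.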

Other observations

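A list of 20 NF-kB subunits, inhibitors and targets, read because CD40 signals through NF-kB, was measured in full at 1 FPKM or more. The all-gene median was exceeded by 16 of them, the list median was 0.22 against 0.12, and 5 were at least 1.5-fold higher. Of all counted genes, 2.68% were at least 1.5-fold higher and 1.55% had a ratio above that of Bst2. The 4 of the list with a ratio as high as that of Bst2 were Cxcl2 (79.99 FPKM with anti-CD40 against 37.7 with IgG), Tnfaip3 (8.60 and 4.03), Ier3 (27.9 and 16.8) and Sod2 (18.9 and 11.4). Nfkbiz, named after its values were seen, lay on the other side at 3.74 and 5.53 FPKM.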
